A study of Mus musculus with 4 samples.

Results

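The genes described here encode the cytokines of the IL-6, IL-10 and IL-12 families, measured in mouse bone marrow-derived macrophages. Members were taken as every probe set (the array's unit of measurement, made of short probes to a transcript) whose platform annotation gave only 1 of the symbols Il6, Il10, Il12a, Il12b, Il23a, Ebi3, Il27, Lif and Osm. Of these 9 genes 8 had a probe set, 10 probe sets in all, among 18193 genes on the array. Il12b and Lif had 2 probe sets each and the others 1. No probe set carried Il27 as its only gene, and that gene was not analysed here.

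Cytokines of the IL-6 family, here IL-6, leukaemia inhibitory factor (Lif) and oncostatin M (Osm), signal through receptors that share the chain gp130, the product of Il6st, and activate JAK kinases and STAT3. IL-12 cytokines are pairs of an alpha and a beta subunit: the beta subunit p40 (Il12b) pairs with p35 (Il12a) to form IL-12 and with p19 (Il23a) to form IL-23, and Ebi3 pairs with the Il27 product to form IL-27. Macrophages make IL-6 and p40 after Toll-like receptor stimulation, and IL-10 restrains both.

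Cells of C57BL/6 background were wild type (WT) or double knockout for Hes1 and Hey1 (DKO), 2 transcriptional repressors of the Notch pathway. Bone marrow cells of both genotypes were cultured for 5 days with 10% serum and with 10% supernatant of L929 cells, which release the macrophage growth factor M-CSF. They were left untreated or given 2 ng/ml of lipopolysaccharide (LPS) from Escherichia coli, the ligand of TLR4, for 3 h. Each of the 4 groups was 1 array, so no difference below has a replicate check, a p-value or an error. How the knockout was driven, how many mice gave cells, and whether the probe sets of Hes1 and Hey1 lie in deleted parts are not given in the sources used here.

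Intensities are in linear units whose trimmed mean was the same on all arrays. Values under 52.9 units, the median of all probe sets over the arrays, were set to this floor before a difference was taken. Where 1 of the arrays compared lay under it, the difference is a bound ("at least"), and where both did none is given. Genes were called higher or lower at 2-fold. The highest of 27 bacterial control probe sets read 22.8 to 46.0 units on the arrays. Hes1 read 45.4 and 26.7 units on the WT arrays without and with LPS against 2.14 and 5.80 on the DKO arrays. Hey1 read 57.2 and 17.3 against 9.17 and 10.2. The labels of the untreated arrays are thus checked by dim values only. On the WT array with LPS both genes lay under its highest bacterial control, 46.0 units, so they do not check the LPS arrays.

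All 10 macrophage markers were above the floor on at least 1 array, with Csf1r, the receptor of the growth factor used, at 17830 to 24370 units. Of markers of other cells on the array, 1 of 7 for dendritic cells (Itgax), 1 of 7 for T and NK cells (Cd8a), 0 of 5 for B cells, 1 of 8 for neutrophils (S100a8), 1 of 6 for stromal cells (Acta2) and 2 of 3 for erythroid cells and platelets (Pf4, Itga2b) rose above it. The summed level of the dendritic cell markers was 372 to 429 units, and Flt3, Zbtb46 and Xcr1 were under the floor on all arrays. The neutrophil markers summed to 591 and 595 units on the WT arrays and 364 and 445 on the DKO arrays. Most of each sum was S100a8, at 463 and 465 units on the WT arrays and 284 and 333 on the DKO arrays. The other neutrophil markers, S100a9 among them, were under the floor on all arrays. The macrophage markers summed to 83464 and 121925 units in WT cells without and with LPS and to 104866 and 130711 in DKO cells, sums that the brightest markers carry. Of single markers, Cd163 was called higher in DKO cells with LPS (46.3 units in WT, 115.6 in DKO, at least 2.19-fold). Mrc1 was 1.72-fold and 1.57-fold higher in DKO cells without and with LPS, and Fcgr1 1.61-fold and 1.48-fold. By its dimmer probe set, Fcgr1 was higher in DKO cells without LPS (log2 difference 0.80) but lower with LPS (-0.25). With LPS Cd14 was higher and Mertk lower in both genotypes, the latter 3.24-fold in WT and 4.86-fold in DKO cells. The part of these differences in the results below was not tested.

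With LPS, the transcripts of Il6, Il12b and Ebi3 were higher in both genotypes, whereas Il10 and Osm stayed short of 2-fold and Il12a and Il23a, the alpha subunits that pair with p40, lay under the floor on every array. Between the genotypes, Il12b read at least 2-fold higher in DKO than in WT cells with LPS, and Il6 nearly so. In bulk RNA, fewer expressing cells and less RNA per cell cannot be told apart.

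**Figure D1:**
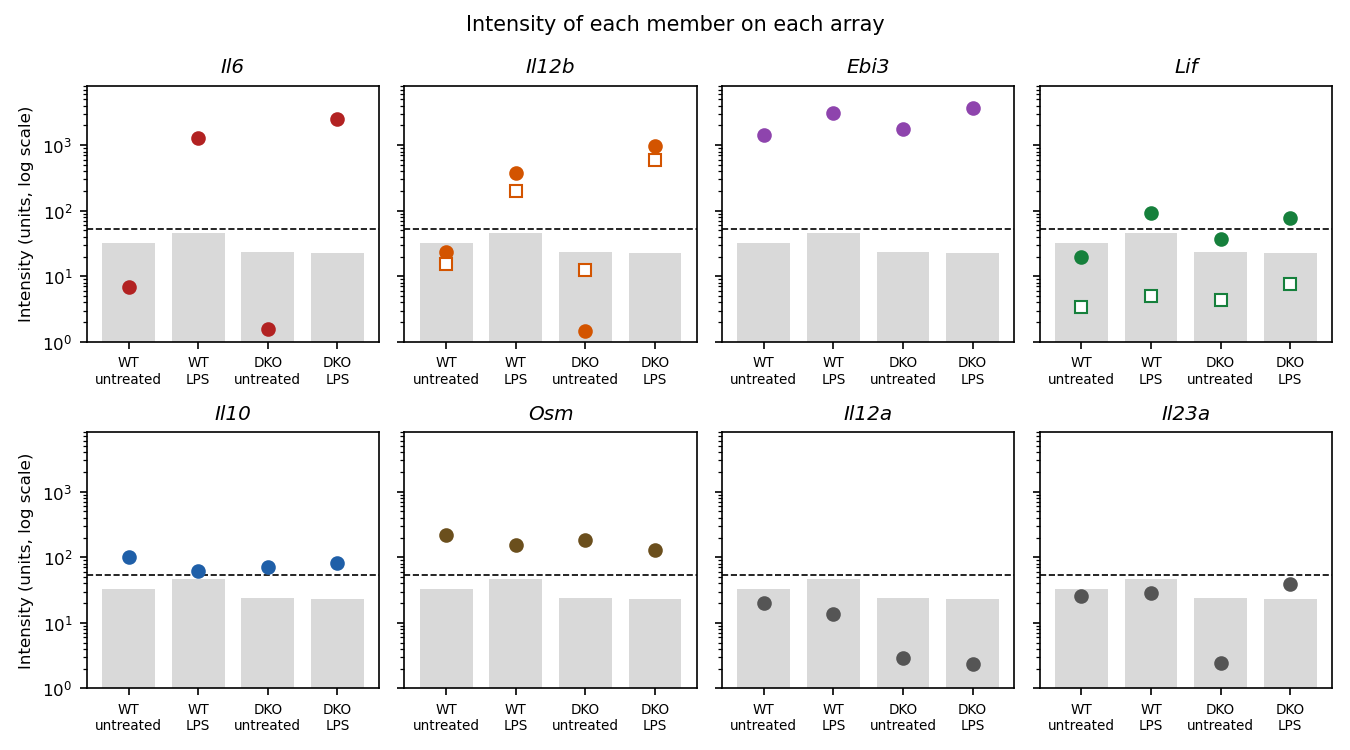
Intensity in linear units, on a log axis, of the 10 member probe sets on the 4 arrays, with filled circles for the probe set that stands for the gene, open squares for the other one, a dashed line at the floor of 52.9 units and grey bars up to the highest bacterial control. Il6 and Il12b rise above the floor with LPS only, Ebi3 is bright on every array, and Il12a and Il23a stay under the floor.

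Il6 encodes the fever-inducing and acute phase cytokine that gave the family its name. Its probe set (1450297_at) read 6.97 and 1291 units in WT cells without and with LPS, and 1.57 and 2501 units in DKO cells. Both untreated values were within the range of the bacterial controls, and both LPS values were far above it. The rise with LPS was at least 24.4-fold in WT and at least 47.3-fold in DKO cells, in each genotype the 13th highest difference, bounds included, of 11491 and 11241 genes measured. With LPS, Il6 was 1.94-fold higher in DKO than in WT cells (log2 difference 0.95), just short of the 2-fold mark. Without LPS no difference between the genotypes can be given.

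Il12b encodes p40. The probe set that stands for it (1419530_at) read 23.3 and 375 units in WT cells without and with LPS, and 1.45 and 971 units in DKO cells. The other probe set (1449497_at) read 15.6, 199, 12.7 and 601 units in the same order. Both thus placed the DKO array with LPS highest, the WT array with LPS next and the untreated arrays under the floor. The rise with LPS was at least 7.10-fold in WT and at least 18.4-fold in DKO cells by the first probe set, and at least 3.77-fold and 11.4-fold by the second. With LPS, Il12b was 2.59-fold higher in DKO cells by the first and 3.02-fold by the second. It was the only member past 2-fold between the genotypes, where 0.845% of 11236 genes were called higher.

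Ebi3 encodes the beta subunit of IL-27. Its probe set (1449222_at) read 1435 and 3107 units in WT cells without and with LPS, and 1746 and 3699 units in DKO cells, above the floor throughout. LPS raised it 2.17-fold in WT and 2.12-fold in DKO cells. Both folds lie just past the threshold. Between the genotypes it was 1.22-fold higher in DKO cells without LPS and 1.19-fold with LPS. Unlike Il6 and Il12b, Ebi3 was thus read above the floor in untreated cells of both genotypes.

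Counted over the family, 3 of the 8 genes on the array were called higher with LPS in WT cells, where 3.36% of all genes measured were, and none was lower. In DKO cells the same 3 genes were called, against 4.66% of all genes. Il6, Il12b and Lif passed the floor with LPS only, so they could differ in no other direction. The median log2 difference of the 6 members measured was 0.95 in WT and 0.81 in DKO cells, against -0.086 and -0.10 over all genes. Over all genes 386 were called higher and 392 lower in WT cells. The split was 520 and 194 with array medians set equal, which moved the median of all genes to 0.12, 429 and 256 by quantile normalization, and 447 and 223 by cyclic loess. In DKO cells it was 524 and 536, or 604 and 422 by cyclic loess.

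**Figure D2:**
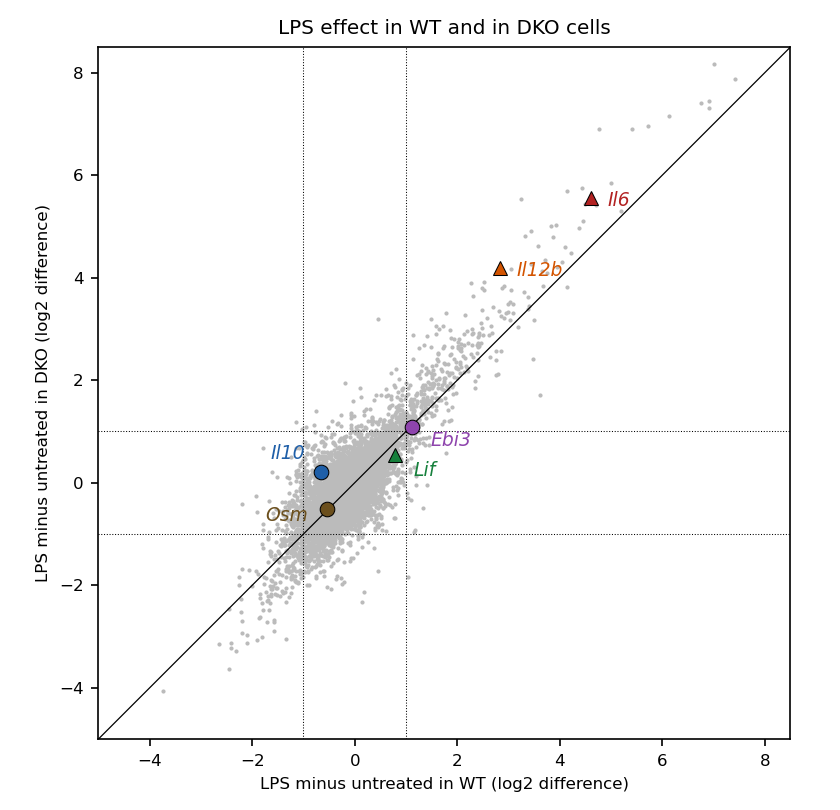
Log2 difference of LPS and untreated arrays in DKO cells (vertical) against WT cells (horizontal), with all genes measured in both in grey, members in colour, triangles for bounds, dotted lines at 2-fold and a solid line at equal effects. Il6 and Il12b lie in the upper right, Ebi3 just past 2-fold on both axes, and Il10 below 0 in WT and above 0 in DKO cells.

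The start regions of the genes called higher with LPS are shown for Il6, Il12b and Ebi3, which rose together, to set them beside the motifs of Hes and Hey repressors and of factors known to act downstream of TLR4. Each is the 250 bases before the RefSeq start site on the plus strand of GRCm38.p6, 5′ to 3′, from chr5:30012864-30013113 for Il6, chr11:44399813-44400062 for Il12b and chr17:55952373-55952622 for Ebi3. Capitals mark matches to the motifs listed after them.
Il6: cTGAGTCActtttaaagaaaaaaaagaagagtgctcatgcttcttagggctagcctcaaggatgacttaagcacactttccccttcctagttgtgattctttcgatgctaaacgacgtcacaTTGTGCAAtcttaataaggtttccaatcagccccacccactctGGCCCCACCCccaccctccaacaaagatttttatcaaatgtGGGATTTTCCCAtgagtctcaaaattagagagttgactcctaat
Il12b: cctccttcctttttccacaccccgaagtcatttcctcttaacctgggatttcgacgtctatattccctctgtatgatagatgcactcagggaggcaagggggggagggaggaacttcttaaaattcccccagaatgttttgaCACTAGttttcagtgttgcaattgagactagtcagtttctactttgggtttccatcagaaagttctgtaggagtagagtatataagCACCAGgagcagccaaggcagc
Ebi3: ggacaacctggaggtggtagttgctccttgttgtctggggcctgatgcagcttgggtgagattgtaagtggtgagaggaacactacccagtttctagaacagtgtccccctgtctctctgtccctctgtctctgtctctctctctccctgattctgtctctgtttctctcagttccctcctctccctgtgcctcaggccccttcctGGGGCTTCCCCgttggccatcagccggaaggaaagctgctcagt

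Both strands were searched for the N-box (CACNAG) and the class C site (CACGNG), letters bound by Hes and Hey proteins, for the RBPJ site (TGGGAA), the NF-kB site (GGG and CC with any 5 bases between them), the AP-1 site (TGANTCA), the C/EBP site (TTGCNNAA) and the TATA box (TATAAA). In Il12b, N-box letters stood from -108 to -103 and from -22 to -17 relative to the start site, and no other motif matched. Of 32851 such windows of all genes 36.7% hold an N-box, so its presence does not set Il12b apart. Il6 held no N-box or class C match. It held NF-kB letters at 3 positions, 2 of them the overlapping pair from -44 to -34, AP-1 letters from -249 to -243, C/EBP letters from -128 to -121, and an RBPJ match from -38 to -33 that overlaps the NF-kB pair. Ebi3 held NF-kB letters only, from -44 to -34, where the overlapping matches of both strands count 4. NF-kB letters occur in 45.8% of windows, RBPJ in 21.6%, class C in 23.5%, TATA in 12.4%, C/EBP in 9.56% and AP-1 in 6.75%. A match is a run of letters and not a bound site. The search took these fixed letters only, so a missing match does not show that a site is absent.

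Windows were also held for Lif, with NF-kB, AP-1 and RBPJ letters, and for 2 start sites of Il12a. The second of these held 2 N-box matches. Class C and TATA letters were found in none of the 6 windows.

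**Figure D3:**
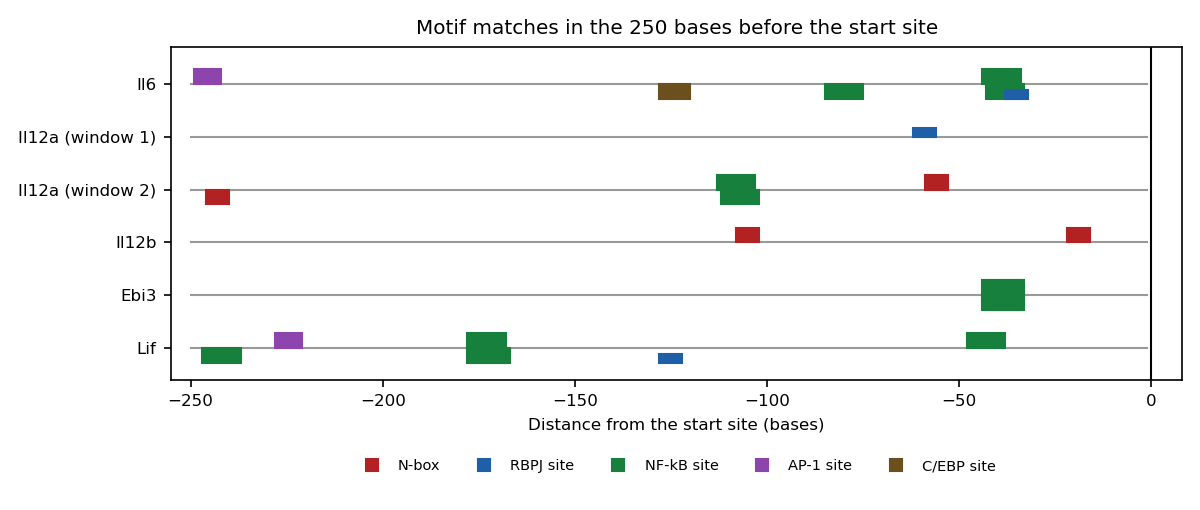
Motif matches (coloured boxes, above the line for the plus strand or both, below it for the minus strand) along the 250 bases before the start site in the 6 windows of 5 members. The N-box matches lie in Il12b and the second Il12a window, and the overlapping NF-kB matches of Il6 and Ebi3 nearest the start both run from -44 to -34.

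Lif, which signals through gp130 and its own receptor chain, was dim. The brighter of its probe sets (1421207_at) read 19.4 and 90.9 units in WT cells without and with LPS, and 36.5 and 76.8 units in DKO cells. Both LPS arrays were above the floor and both untreated arrays under it. The rise was at least 1.72-fold in WT and at least 1.45-fold in DKO cells, bounds that fall short of 2-fold. With LPS the log2 difference of DKO and WT cells was -0.24. Its other probe set (1450160_at) read 3.35 to 7.54 units, under the floor on all arrays.

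Osm, which signals through gp130 with the Osm or Lif receptor chain, went the other way but short of 2-fold. Its probe set (1438767_at) read 221 and 153 units in WT cells without and with LPS, and 183 and 129 units in DKO cells. In each genotype the LPS array was the lower one, by log2 differences of -0.53 in WT and -0.50 in DKO cells. In each treatment the DKO array was the lower one, by -0.27 without and -0.24 with LPS.

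Il10 encodes the main anti-inflammatory cytokine of macrophages. Its probe set (1450330_at) read 99.1 and 62.6 units in WT cells without and with LPS, and 71.0 and 82.6 units in DKO cells, all within a narrow range just above the floor. The log2 difference with LPS was -0.66 in WT and 0.22 in DKO cells, neither past 2-fold. The difference of these effects was 0.88. With LPS Il10 was 1.32-fold higher in DKO cells, and without LPS 1.40-fold lower.

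Il12a (1425454_a_at) read 19.7 and 13.5 units on the untreated and LPS arrays of WT cells and 2.86 and 2.36 on those of DKO cells. Il23a (1419529_at) read 25.6 and 28.9 units in WT and 2.43 and 38.9 in DKO cells. The value of Il23a in DKO cells with LPS was under the floor but above the highest bacterial control of that array, 22.8 units. All others lay within the range of these controls. No difference is given for either gene, and a dim probe set does not show that a transcript is absent.

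Without LPS, 3 members were above the floor in at least 1 genotype, Ebi3, Il10 and Osm, and none of them passed 2-fold, where 1.45% of all genes did. The same 3 genes gave a difference of LPS effects, DKO minus WT, where 2.03% of 9982 genes passed 2-fold. It was 0.88 for Il10, 0.030 for Osm and -0.031 for Ebi3. The last 2 changed sign with the scaling: with array medians set equal Osm was -0.18, by quantile normalization -0.034 and by cyclic loess -0.057, and Ebi3 by cyclic loess 0.013. The calls over all genes without LPS were 53 higher and 112 lower, or 97 and 43 with array medians set equal (the median of all genes then being 0.19), 66 and 71 by quantile normalization and 64 and 68 by cyclic loess. Those of the difference of effects were 131 and 72, or 82 and 171 (median -0.26), 105 and 83, and 112 and 93 in the same order.

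The genotype difference with LPS was set beside that of other induced genes. Of 338 genes at least 2-fold higher with LPS in both genotypes, members included, 269 read higher in DKO than in WT cells with LPS, by any size, and 5.33% by at least 2-fold. Their median was 1.20-fold (log2 0.26), with 5% of them above a log2 difference of 1.0. Il12b was the 5th and Il6 the 23rd highest of these 338 genes, and Ebi3 the 175th. Ebi3 at 1.19-fold thus lay at the median of the induced genes, and Il12b in their upper tail. The choice of these genes used the same LPS arrays, so the values are a description.

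**Figure D4:**
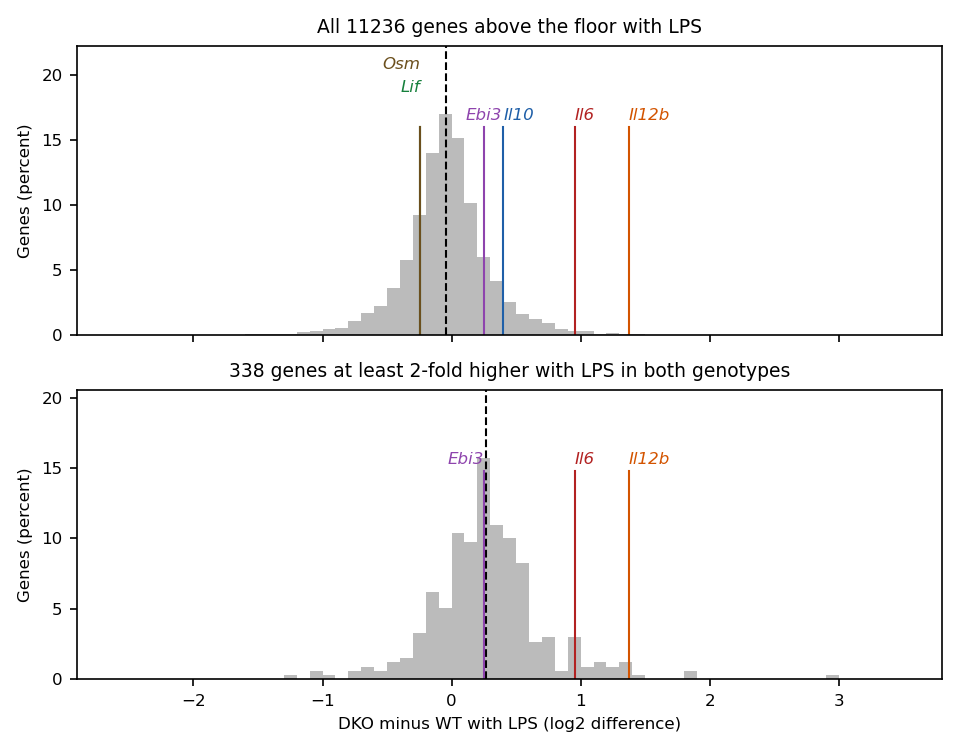
Percent of genes by log2 difference of DKO and WT cells with LPS, for all 11236 genes above the floor (top) and the 338 genes at least 2-fold higher with LPS in both genotypes (bottom), with dashed lines at the medians and coloured lines at members. Lif and Osm coincide at -0.24, Ebi3 lies at the lower panel's median, and Il6 and Il12b lie to the right of most genes in both panels.

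Patterns most like each member were sought by the Euclidean distance, in log2 units over the 4 arrays, between floored values centred on their own mean, among 11823 other genes. Nearest to Il6 were Cd40 (distance 0.27), Ets2 (0.30) and Marcksl1 (0.53). Nearest to Il12b were Ptges (0.35), Gm6377 (0.49) and Itgb8 (0.54). Itgal (0.079), Cxcl16 (0.086) and Ccdc50 (0.088) were nearest to Ebi3, Rps6ka5 (0.061), Dr1 (0.063) and Zer1 (0.069) to Il10, Rab27b (0.020), Vav2 (0.037) and Kctd6 (0.037) to Osm, and Cd247 (0.060), Adgb (0.071) and Kctd5 (0.077) to Lif. Among the members themselves Il10 and Osm were 0.56 apart, Ebi3 and Lif 0.60, and Il6 and Il12b 1.60. Distances of Il6, Il12b and Lif depend on the floor, at which both untreated arrays stand.

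By the probe sets that stand for them, the receptor chains of these families that passed 2-fold with LPS, Il6ra and Lifr, were lower. Of 12 chains listed 10 were on the array and 6 above the floor, and these 2 were called lower in each genotype, where 3.41% of all genes were in WT and 4.77% in DKO cells. The median log2 difference of the 6 was -0.10 in WT and -0.37 in DKO cells.

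Il6ra, the chain that binds IL-6, read 2032 and 689 units in WT cells without and with LPS, and 2319 and 596 units in DKO cells. It was thus 2.95-fold lower with LPS in WT and 3.89-fold in DKO cells. Its dimmer probe set gave log2 differences of -1.22 and -0.51, the latter short of 2-fold. Lifr, the chain that binds Lif and Osm, read 141 and 119 units in untreated WT and DKO cells and 19.3 and 21.5 with LPS, at least 2.66-fold and 2.25-fold lower. A dimmer Lifr probe set, at 55.8 and 76.7 units in untreated cells, gave log2 bounds of -0.076 and -0.54.

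Il6st, the shared chain gp130, was read differently by its probe sets. The brightest on average gave log2 differences with LPS of -0.06 in WT and -0.58 in DKO cells. The next went from 953 to 359 units in WT and from 905 to 425 in DKO cells, log2 differences of -1.41 and -1.09. Both IL-10 receptor chains were above the floor throughout by the probe sets that stand for them. A dimmer Il10rb probe set fell with LPS from 187 to 109 units in WT and from 226 to 93.5 in DKO cells. Its log2 differences were -0.78 and -1.27, the latter past 2-fold. Il10ra, the ligand-binding chain, read 770 and 766 units in WT cells without and with LPS, and 843 and 1093 units in DKO cells. No difference of this probe set passed 2-fold. A dimmer Il10ra probe set, which can share sequence with other transcripts, read 44.7 and 55.5 units in WT and 38.4 and 119 in DKO cells. Its log2 difference of DKO and WT cells with LPS was 1.10, and its bound for LPS in DKO cells 1.16. Il12rb2, a chain of the IL-12 receptor, read 53.4 to 83.6 units, and Il12rb1, Il27ra, Osmr and Cntfr were under the floor on all arrays.

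Of the JAK and STAT proteins that carry these signals, 10 of 11 listed were measured and 1 was called with LPS, higher in each genotype. Of all genes, 3.36% were called higher in WT and 4.66% in DKO cells. Jak2, a kinase bound to gp130 and to the IL-12 and IL-23 receptors, rose from 819 to 2498 units in WT cells, 3.05-fold, and from 637 to 3385 in DKO cells, 5.31-fold. Its other probe set gave log2 differences of 2.08 and 2.55. Stat3, the main factor downstream of IL-6 and IL-10, read 2504, 1926, 2575 and 2121 units in untreated WT, LPS-treated WT, untreated DKO and LPS-treated DKO cells, all differences short of 2-fold. The largest other difference was that of Stat5b, -0.81 in WT cells. A dimmer Stat5b probe set went the other way, at 0.58 in WT cells and a bound of 0.48 in DKO cells.

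**Figure D5:**
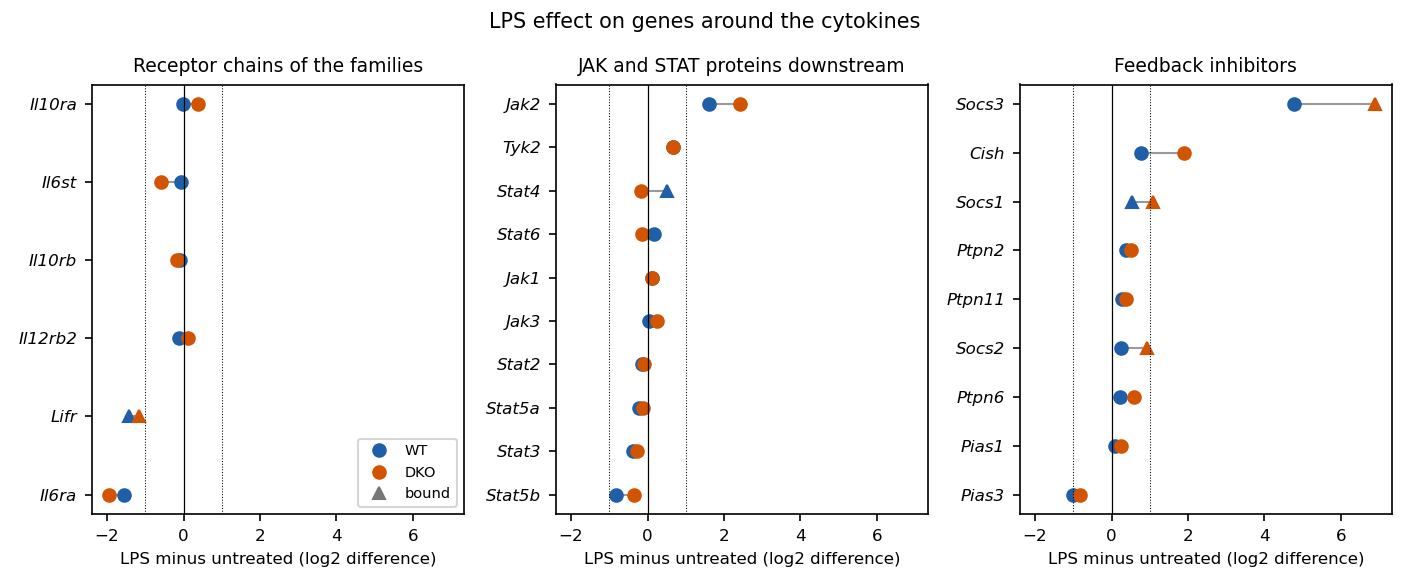
Log2 difference of LPS and untreated arrays in WT (blue) and DKO (orange) cells for receptor chains, JAK and STAT genes and feedback inhibitors with a difference in both genotypes, with triangles for bounds and dotted lines at 2-fold. Il6ra and Lifr lie left of the lower mark, Jak2 and Socs3 right of the upper one.

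Among 9 feedback inhibitors, 1 was called higher and 1 lower with LPS in WT cells, and 3 higher in DKO cells. Of all genes, 3.36% were higher and 3.41% lower in WT cells, and 4.66% higher in DKO cells. Socs3, which binds gp130 and blocks its JAK kinases, rose from 196 to 5341 units in WT cells, 27.3-fold, and from 38.6 to 6288 in DKO cells, at least 119-fold. These are values of a probe set that can share sequence with other transcripts. With such probe sets left out, Socs3 read 11 and 4181 units in WT cells and 8.72 and 4832 in DKO cells, log2 bounds of 6.30 and 6.51. Socs1, an inhibitor of JAK kinases, read 14.1, 76.6, 5.18 and 111 units in the same order of arrays as Stat3, a rise of at least 1.45-fold in WT and at least 2.10-fold in DKO cells. Cish, an inhibitor of STAT5 signals, read 153, 260, 95 and 356 units, a rise of 1.70-fold and 3.75-fold, the latter a log2 bound of 1.09 with a floor of 168 units, and its difference of LPS effects was 1.14, or 0.93 with array medians set equal. Pias3, an inhibitor of STAT3, was lower in WT cells (log2 difference -1.01), but short of 2-fold under 5 of the alternatives, at -0.77 to -0.98. Without LPS, Socs3 was at least 3.70-fold lower in DKO cells by that first probe set, and the other one that can share sequence gave a log2 difference of -0.84. The call was lost with such probe sets left out, since the remaining one was under the floor in both genotypes, and with a floor of 168 units, where the bound was -0.22.

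Of transcription factors known to act on these cytokine genes, 26 of 27 were on the array. In WT cells 25 were measured, of which 9 were higher and 1 lower with LPS, and in DKO cells 24, of which 9 were higher and 3 lower. Of all genes, 3.36% were higher and 3.41% lower in WT cells, and 4.66% and 4.77% in DKO cells. Nfkbiz, whose product is needed for Il6 and Il12b transcription, rose from 421 to 6157 units in WT and from 333 to 9241 in DKO cells. With LPS its log2 difference of DKO and WT cells was 0.59 by this probe set, but -0.13 and 0.019 by its dimmer ones. Cebpd, an activator of Il6, rose from 1230 to 4982 and from 1071 to 7170 units. Its dimmer probe set read 87.2 and 101 units in WT cells and 97.7 and 321 in DKO cells, log2 differences of 0.21 and 1.71, and with the median of the probe sets Cebpd stood at 1.11 in WT cells. Rel, the NF-kB subunit needed for Il12b, rose 2.10-fold and 3.01-fold, and Rela 2.10-fold and 2.43-fold (the former 0.99 on the log2 scale by cyclic loess). Irf1 rose 5.50-fold and 6.62-fold, and Rbpj, the Notch pathway's DNA-binding factor, 3.20-fold and 4.68-fold. The next brightest Rbpj probe set gave log2 differences of 1.95 and 2.70. The dimmest gave 0.71 in WT cells, short of 2-fold, and 2.12 in DKO cells, a difference of LPS effects of 1.41. Junb (log2 2.21 and 2.19) and Batf (1.30 and 1.37) rose alike. Nfkbid passed 2-fold in WT cells (1.40, against 0.87 in DKO), and Cebpb in DKO cells (1.16, against 0.87 in WT). The dimmer Cebpb probe set passed 2-fold in both genotypes, at 1.77 in WT and 1.73 in DKO cells.

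Maf, an activator of Il10, was lower with LPS in both genotypes, from 4475 to 1727 units in WT and from 6112 to 2858 in DKO cells. Irf8, an activator of Il12b, fell in DKO cells from 4540 to 1568 units, a log2 difference of -1.53, against -0.97 in WT cells. Jun fell in DKO cells by a log2 difference of -1.61, against -0.75 in WT cells. In DKO against WT cells with LPS, Jun was at -0.65, and at -1.20 by its dimmer probe set. Between the genotypes with LPS, Fos was lower in DKO cells, 3617 against 7884 units, and so was Bhlhe40, a repressor of Il10, 1143 against 2297 units (log2 differences -1.12 and -1.01). With LPS 0.934% of all genes were called lower in DKO cells. Bhlhe40 lies at the mark and was -0.98 by quantile normalization and by cyclic loess, where Fos was -1.10 by both.

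All 10 RNA-binding regulators of cytokine mRNAs were measured. Zc3h12a, whose product Regnase-1 cleaves Il6 and Il12b mRNA, rose from 252 to 928 units in WT and from 185 to 1059 in DKO cells, a log2 difference in WT cells of 1.88, or 1.11 with the median of its probe sets. Zc3h12c, its relative, rose from 202 to 2418 and from 138 to 3400 units, and its difference of LPS effects was 1.04. Zfp36, which destabilises AU-rich mRNAs, rose 2.15-fold in WT cells and stood at 1.94-fold in DKO cells. Its relatives went down: Zfp36l1 was lower by log2 differences of -1.55 in WT and -1.42 in DKO cells, and Zfp36l2 of -0.75 and -1.82, the latter past 2-fold. Arid5a, which stabilises Il6 mRNA, read 175, 200, 183 and 114 units in untreated WT, LPS-treated WT, untreated DKO and LPS-treated DKO cells, none of its differences past 2-fold. The difference of LPS effects of Zc3h12c was 0.83 with array medians set equal, and that of Zfp36l2, -1.07, was -0.96 by quantile normalization, both then short of 2-fold. With the median of its probe sets Zfp36l2 stood at -0.94 in DKO cells.

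Of genes known to be raised by IL-10 or STAT3 in macrophages, 14 were measured by the probe sets that stand for them. With LPS 6 of these were called higher in WT and 7 in DKO cells, and none lower. Of all genes, 3.36% were called higher in WT and 4.66% in DKO cells. Socs3, the NF-kB family gene Bcl3 (7.55-fold and 9.29-fold), the kinase gene Pim1 (3.83-fold and 6.96-fold), the haem oxygenase gene Hmox1 (2.27-fold and 2.18-fold) and the TNF receptor gene Tnfrsf1b (2.38-fold and 2.37-fold) were called in both genotypes. Zfp36 passed 2-fold in WT cells, and Il1rn (2.44-fold) and Ddit4 (2.05-fold) did in DKO cells; the differences of LPS effects of these 3 genes were all short of 2-fold. Il4ra, Sbno2, Nfil3 and Fcgr1 were below 0 with LPS in both genotypes, short of 2-fold. Dimmer probe sets of Fcgr1 (log2 difference -1.81) and Il4ra (bound -1.52) passed 2-fold lower in DKO cells. One of Etv3 passed it higher in WT (1.01) and DKO cells (1.08), and that of Il10ra in DKO cells (bound 1.16). LPS also acts on several genes of this list directly. By the probe sets that stand for them, none differed by 2-fold between the genotypes with LPS. The dimmer probe set of Il10ra did (log2 difference 1.10).

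Among 6 other cytokines of these families on the array, 3 rose above the floor on any array, Clcf1, Ctf1 and Il20, at no more than 76.9 units, and none differed by 2-fold. Of other macrophage cytokines listed as induced by LPS, 13 of 15 were on the array. With LPS 6 of 10 measured were called higher in WT and 8 of 11 in DKO cells, where 3.36% and 4.66% of all genes were. The list was chosen for genes known to rise with LPS, so these counts are a description only. In DKO against WT cells with LPS their median log2 difference was 0.43 over 11 genes, against 0.33 over the 6 members and -0.040 over all genes. Il1b, an IL-1 family ligand, was the 1 gene called higher in DKO cells, at a log2 difference of 1.02 (0.98 by quantile normalization). Il1a, its relative, read 296 units in WT and 549 in DKO cells with LPS, and Csf2, a growth factor of granulocytes and macrophages, 149 and 233 units. Both, like Il6, lay between equal levels and the 2-fold mark.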

How the data were processed

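Per the labels' protocols, total RNA was column-purified, amplified and labelled with biotin. The table deposited by the authors gives 1 linear intensity per probe set and array; from the values, 2% trimmed means were 500.0 units on all arrays. A summarising tool was not given in the sources used here. Counts of calls over all genes depend on the scaling.

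The 64 control probe sets were dropped. Among the rest 34945 named 1 gene, 932 several and 9160 none. Symbols were updated through a RefSeq table (GRCm38.p6). A gene's value was its probe set with the highest mean, floored at 52.9 units. The table's intensity values were compared as log2 differences of arrays; with 1 array per group nothing was tested. The comparison code was tested on simulated data. Named genes were all members, list genes past 2-fold, up to 3 more per list and comparison, and the 3 genes nearest each member. Members, lists and motifs were chosen with earlier results of these data known. Alternatives were 3 scalings, 2 floors, an offset of 16 units, 2 probe set rules and 2 thresholds. Promoters were RefSeq's (GRCm38.p6), held for 5 of 9 members. Python 3.11.15 and, for cyclic loess, limma 3.58.1 were used.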

Additional observations from a re-analysis of the deposited data

Results flagged for a closer look

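Il10 went opposite ways with LPS in the 2 genotypes, with a log2 difference of -0.66 in WT and 0.22 in DKO cells. The signs were kept under each scaling, at -0.45 and 0.22 where array medians were set equal, -0.44 and 0.30 by quantile normalization and -0.41 and 0.33 by cyclic loess. Neither effect passed 2-fold, each rests on 1 array per group, the values lie at 62.6 to 99.1 units just above the floor, and the difference was not tested.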

How the results depend on the processing

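Il6, Il12b and Ebi3 were called higher with LPS in both genotypes under every scaling, floor and probe set rule tried, and Il12b higher in DKO than in WT cells with LPS under all of these; the log2 difference of Il12b ranged from 1.33 to 1.59, the upper end being its other probe set, an alternative chosen after seeing the data, and that of Il6 from 0.93 to 0.98. Of 182 member differences recomputed, 179 kept their call, 4 of all changed sign (those of Osm and Ebi3 given above), and 3 gained a call, all of Lif: 1.93 in WT and 1.07 in DKO cells with a floor of 23.8 units, and 1.59 in WT cells with no floor. At 1.5-fold the counts of members called were 5 for LPS in WT cells, 2 for DKO against WT with LPS and 1 (Il10) for the difference of LPS effects; at 3-fold the count for DKO against WT with LPS was 0, and Ebi3 lost its call with LPS. With no floor and an offset of 16 units, 2 members (Il12b and Il23a) passed 2-fold in untreated cells and 3 (with Il6) in the difference of LPS effects. Il23a then also passed 2-fold with LPS in DKO cells. The untreated values of these 3 genes lie within the range of the bacterial controls. The median of the induced genes in DKO against WT cells with LPS was 0.20 to 0.29. Calls over all genes moved with the floor and with the threshold: for DKO against WT with LPS they were 95 higher and 105 lower, 326 and 318 with the lower floor, 37 and 37 with a floor of 168 units, 498 and 547 with no floor, 453 and 565 at 1.5-fold and 12 and 10 at 3-fold, and without LPS 53 and 112, 172 and 495, 21 and 42, 337 and 707, 269 and 565, and 7 and 15 in the same order. Those for LPS in WT cells were 386 and 392, against 548 and 791 with the lower floor, 304 and 225 with the higher one, 779 and 925 with no floor, 796 and 1481 at 1.5-fold and 186 and 65 at 3-fold; in DKO cells they were 524 and 536, against 799 and 771, 419 and 357, 1009 and 904, 1005 and 1632, and 277 and 138; for the difference of LPS effects 131 and 72, against 376 and 163, 30 and 18, 1287 and 774, 521 and 440, and 23 and 10. Signal over background limits Il12a, Il23a, Lif and all untreated values of Il6 and Il12b. No paired analysis was possible because each group has 1 array.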
